A study of Mus musculus with 9 samples.

Results

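The 42 genes described here are the rows of the deposited count table whose symbols belong to a list of cell cycle and mitosis genes, out of 20467 genes listed. The list covers D-type cyclins and their kinases (5 genes), the step into S phase (4), replication licensing and the sliding clamp (8), mitotic entry (8), the spindle checkpoint (5), centromere and kinetochore (4), spindle motors and microtubule binders (6) and mitotic chromosome proteins (2). RNA was sequenced from RAW264.7 cells, a mouse macrophage line that divides in culture, after exposure of all cultures to 100 ng/ml lipopolysaccharide (LPS) for 2 h. Roquin IP (3 libraries) is RNA recovered with rabbit polyclonal antibodies to Roquin (Bethyl 514A and 515A) on protein A/G beads, control IP (3 libraries) is RNA recovered with the same beads and no antibody, and input (3 libraries) is RNA of the lysate before any immunoprecipitation. The control IP carries no antibody, so mRNA held through Roquin cannot be told apart from mRNA held through anything else that the antibodies bind.

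Roquin proteins are RNA-binding ubiquitin ligases that recognise short stem-loops, among them the constitutive decay element (CDE), mostly in 3′ untranslated regions (UTRs), and recruit deadenylases that start decay of the mRNA. In the cell cycle, D-type cyclins with Cdk4 and Cdk6 inactivate the retinoblastoma family and free E2F factors, which switch on cyclin E and the replication genes; Cdk1 with cyclin A and cyclin B then drives mitosis, in which kinetochores tie chromosomes to the spindle and the spindle checkpoint delays anaphase until all are attached. Most of these mRNAs are periodic, so their level in a culture depends on the share of cells in each phase. In these bulk libraries fewer cells in a phase and less mRNA per cell cannot be told apart.

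The authors' deposited table gave all 42 genes the class "no CDE", which it gave to 20279 of 20467 genes (99.08%). The transcripts were searched for the core letters of a CDE, written TTCNNNGAA with a loop (NNN) of C or T, then A or G, then C or T, which gives 8 words, on the sense strand only. No other motif was searched. The 4 members with a match are shown because 1 of them, Cenpf, is the member called higher in Roquin IP than in both other groups. Each is printed 5′ to 3′ with 8 bases on either side, from GENCODE M21 transcripts (GRCm38), and the capitals mark the 9 letters.
Cenpf, coding sequence: gtagcaatTTCTGTGAAcagatgac
Cenpe, coding sequence: agtttggaTTCCGTGAAggccgagc
Mki67, coding sequence: agacgacaTTCTGTGAAtctggatg
Cdk6, 3′ UTR: atctttagTTCTATGAAatgcaata
The capitals lie at chr1:189657452-189657460 (minus strand) in Cenpf, chr3:135237802-135237810 (plus) in Cenpe, chr7:135707705-135707713 (minus) in Mki67 and chr5:3528170-3528178 (plus) in Cdk6. The bases flanking the stem could pair further by 1 base pair in Mki67 and by 0 in the other 3. The letters occurred in the 3′ UTR of 1 of 42 members (2.38%) and of 1097 of 20119 genes with a transcript (5.45%), and in the coding sequence of 3 of 42 members (7.14%) and of 1028 of 20119 genes (5.11%). Long sequences hold them more often: of the 211 genes with a coding sequence within 25% of the length of that of Cenpf (8994 nt), 42 (19.9%) had a match. A match describes letters and not a bound site.

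**Figure D1:**
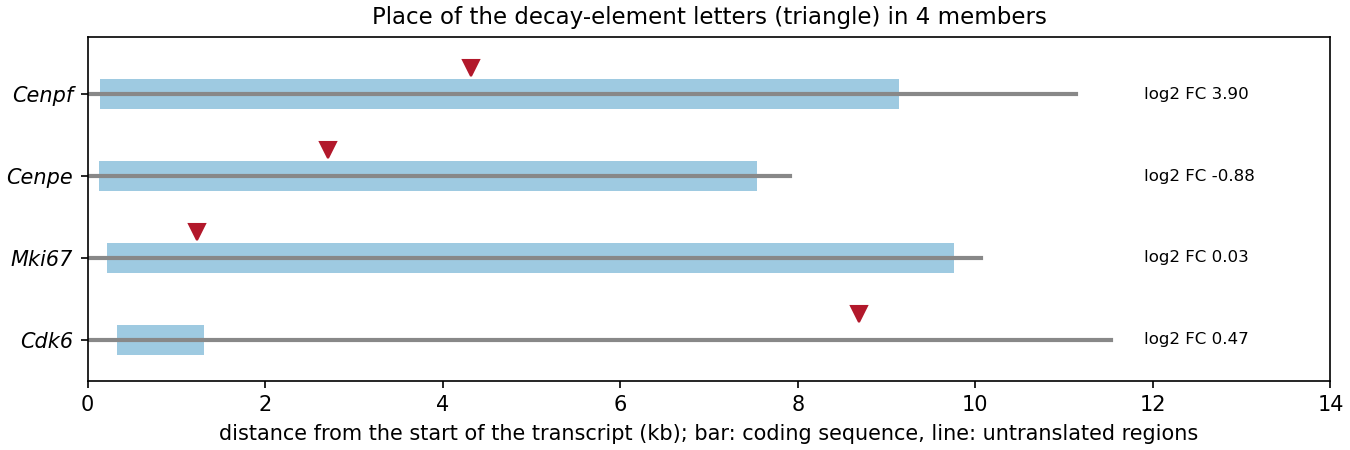
The transcripts of Cenpf, Cenpe, Mki67 and Cdk6 are drawn to scale in kb from their start, with the coding sequence as a bar, the untranslated regions as a line and a triangle over the letters described in the text. The log2 fold change of Roquin IP over control IP beside each shows 3.90 for Cenpf and values between -0.88 and 0.47 for the other 3.

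The libraries held 1799390 to 12975767 reads. Lars2 made up a large part of each library. Its share ran from 28.6% to 41.5% for control IP, from 32.5% to 41.0% for the input and from 15.0% to 23.9% for Roquin IP. Tnf alone took 17.6% to 27.2% of the reads in Roquin IP, against 0.143% to 0.262% in control IP, with 0.201% to 0.516% in the input, so levels are given as counts per 1e+06 reads (CPM) of a library size scaled by the trimmed mean of M-values (TMM), under which 1 CPM stood for 2.02 to 11.7 reads. All 9 macrophage markers checked were measured, with sums of 1416 to 2193 CPM in Roquin IP, against 1164 to 1749 CPM in control IP, with 1384 to 1868 CPM in the input. Of 7 T and B cell markers and of 8 markers of fibroblasts, epithelium and endothelium, 0 had enough reads to test, and each list summed to at most 1.18 CPM in any library. The 42 genes together took 0.266% to 0.369% of the reads in Roquin IP, against 0.462% to 0.605% in control IP, with 0.550% to 0.651% in the input. All 42 passed the filter on low counts and are among the 9567 genes tested. Their values with a count of 0 were Cdc6 in control IP 1 and Ccne1 in input 1, where a count of 0 allows up to 0.912 and 1.22 CPM (3 counts).

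Setting Roquin IP against control IP asks which of these mRNAs came down with the antibodies beyond what beads alone held. Of the 42, Cenpf passed in the fit without replicate number as a block, and no other. Cenpf encodes a large kinetochore and nuclear matrix protein that builds up in G2 and links the kinetochore to dynein and microtubules, and its gene lies at chr1:189640606-189688086 (GRCm38, minus strand). It was read 5078, 9181 and 11037 times in Roquin IP, against 461, 429 and 793 times in control IP and 515, 606 and 289 times in the input. Scaled for library size, these are 2126, 1159 and 1066 CPM in Roquin IP, against 140.2, 83.9 and 68.0 CPM in control IP and 209, 239 and 143 CPM in the input. Each Roquin IP library lay far above each of the other 6, and Roquin IP 1 was the highest. Roquin IP exceeded control IP 14.9-fold (log2 fold change 3.90, SE 0.40, edgeR adjusted p = 1.87e-05), and over 17 alternative settings the log2 value stayed between 3.08 and 4.25 with an adjusted p of at most 0.000461. The authors' deposited table lists a linear ratio of 15.04 with p = 0.001386 for Cenpf. By log2 fold change Cenpf ranked 60 of 9567 genes.

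**Figure D2:**
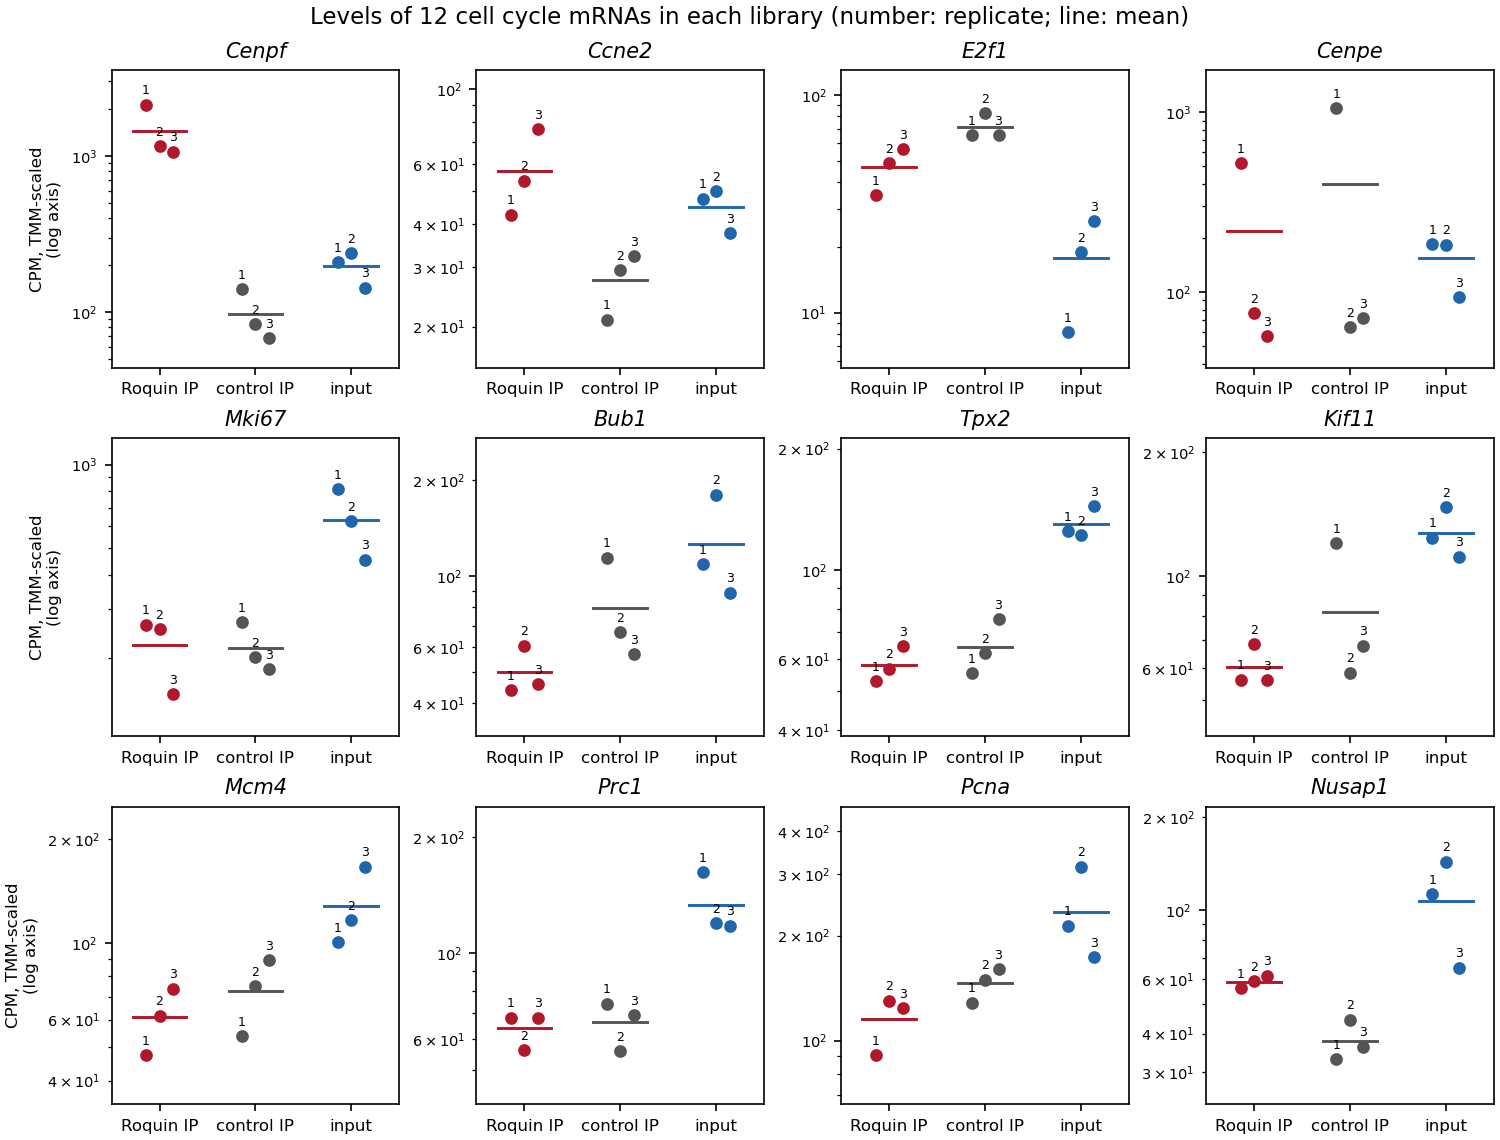
Each panel gives the level of 1 mRNA in every library, as TMM-scaled CPM on a log axis, with Roquin IP in red, control IP in grey and input in blue, replicate numbers beside the points and the mean of 3 libraries as a line. Cenpf lies between 1066 and 2126 CPM in Roquin IP and below 240 CPM in the other 6 libraries, while Mki67, Tpx2 and Prc1 are lower in both IPs than in the input.

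With 1 of 42 members called higher, the background is 3.76% of all genes tested (360 of 9567). With the replicate block 2 members were higher, Cenpf and Ccne2, and 0 lower, against 5.52% and 0.115% of all genes. edgeR called 0 members lower, against 0% of all genes; at an unadjusted p under 0.05, 2 members were higher and 4 lower (7.93% and 2.13% of all genes), and DESeq2 called 2 higher and 0 lower (4.96% and 0.0627% of all genes). The 42 members had a median log2 fold change of -0.25, against -0.12 over all genes tested, with 11 positive and 31 negative values. The 3 Roquin IP libraries lay above all 3 control IP libraries for 4 members (10.7% of all genes) and below them for 8 (8% of all genes). With library size alone as the scale, which moved the median of all genes to -0.96, the median of the members was -1.09 and 28 of them were called lower, against 38.6% of all genes, and 1 higher, Cenpf, against 2.69% of all genes. The authors' deposited table lists 11 of the 42 with a ratio over 1, and 1 of the 42, Cenpf, with p under 0.05.

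Ccne2, which encodes cyclin E2, the partner of Cdk2 at the start of S phase, was next after Cenpf. It had 42.7, 53.8 and 76.0 CPM in Roquin IP, against 21.0, 29.3 and 32.2 CPM in control IP and 47.6, 50.1 and 37.6 CPM in the input. Roquin IP lay above control IP without overlap, but overlapped with the input. Against control IP it stood at a log2 fold change of 1.06 (SE 0.31, edgeR adjusted p = 0.0891), and the fit with replicate number as a block called it at the same 1.06 (adjusted p = 0.0263). Over 17 alternatives its log2 value ran from 0.24 to 1.23 and its adjusted p from 0.0166 to 0.583, with DESeq2 and the block as the alternatives that called it. After a correction for GC content and length Ccne2 was at 0.87 (edgeR adjusted p = 0.202), and at 0.84 (0.0550) with the block added to that correction. Exons of Ccne2 share 609 nt with Ints8 on the opposite strand, and whether strand was used in counting is not known, so reads of the pair cannot be told apart. The authors' deposited table lists Ccne2 with a ratio of 2.12 and p = 0.494168.

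The other cyclins and kinases of G1 and S phase did not pass against control IP. Cyclin D2 (Ccnd2) had a log2 fold change of 0.32, cyclin D1 (Ccnd1) -0.14 and cyclin D3 (Ccnd3) -0.19, with adjusted p from 0.834 to 0.902. Their kinases differed in sign, with Cdk6 at 0.47 (adjusted p = 0.663) and all 3 Roquin IP libraries above control IP, and Cdk4 at -0.65 (0.401) and all 3 below. With library size alone Cdk6 was at -0.37. E2f1, the transcription factor that drives S phase genes, was at -0.60 (0.655), cyclin E1 (Ccne1) at 0.01 (0.999) and Cdk2 at -0.26 (0.853). In the licensing group, which holds the 6 subunits of the Mcm helicase, the loader Cdc6 and the clamp Pcna, 7 of 8 values were negative, from -0.79 for Mcm3 (0.346) to -0.25 for Mcm4 (0.824), and Cdc6 was at 0.38 (SE 0.82, 0.920) from 12 to 131 reads in Roquin IP and 0 to 142 in control IP.

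The mitotic genes other than Cenpf did not pass either. Cyclins A2, B1 and B2, Cdk1, the kinases Plk1, Aurka and Aurkb, and Foxm1, the transcription factor of the G2 and M phase genes, lay between -0.67 (Plk1, adjusted p = 0.631) and 0.31 (Foxm1, 0.814). The checkpoint genes Bub1, Bub1b, Mad2l1 and Ttk and their target Cdc20, an activator of the anaphase-promoting complex, lay between -0.65 and 0.09. Mad2l1 was called lower with library size alone and when the correction for GC and length was joined with the replicate block, there at -0.92 (adjusted p = 0.0278, from 0.0201 to 0.964 over 17 alternatives). Among kinetochore genes, Cenpa, the histone H3 variant of centromeres, was at -0.12 (0.927) and Birc5 (survivin), a part of the chromosomal passenger complex, at -0.78 (0.329). Of the spindle genes, Nusap1, which bundles microtubules near chromosomes, had the highest value at 0.63 (0.520), with all 3 Roquin IP libraries above control IP, and -0.20 with library size alone. Kif23, Kif20a, Kif11, Tpx2 and Prc1 (the rest of this group) ran from -0.79 to -0.05 (0.585 to 0.961). Mki67, the proliferation marker Ki-67 that coats mitotic chromosomes, was at 0.03 (0.984) and Top2a, the topoisomerase that decatenates sister chromatids, at -0.81 (0.531).

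Cenpe, the kinesin of the kinetochore, gave the lowest value against control IP, -0.88, with the widest error (SE 0.95, adjusted p = 0.814). Over 17 alternatives its log2 value ran from -2.57 to 1.66, with an adjusted p of 0.127 or more. It was read 1241, 604 and 592 times in Roquin IP, against 3479, 327 and 839 times in control IP and 455, 466 and 190 times in the input. These counts are 520 CPM in Roquin IP 1 against 76.2 and 57.2 CPM in Roquin IP 2 and 3, and 1058 CPM in control IP 1 against 64.0 and 72.0 CPM in control IP 2 and 3, with 185, 184 and 94.1 CPM in the input. Replicate 1 of both IPs thus stood far above replicates 2 and 3, and input 1 did not. Control IP 1 also had the highest control IP value of Top2a (742 CPM, against 247 and 241 CPM), Kif23 (122 CPM, against 31.7 and 43.4 CPM) and Bub1 (114 CPM, against 66.7 and 56.9 CPM). The cause was not tested.

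**Figure D3:**
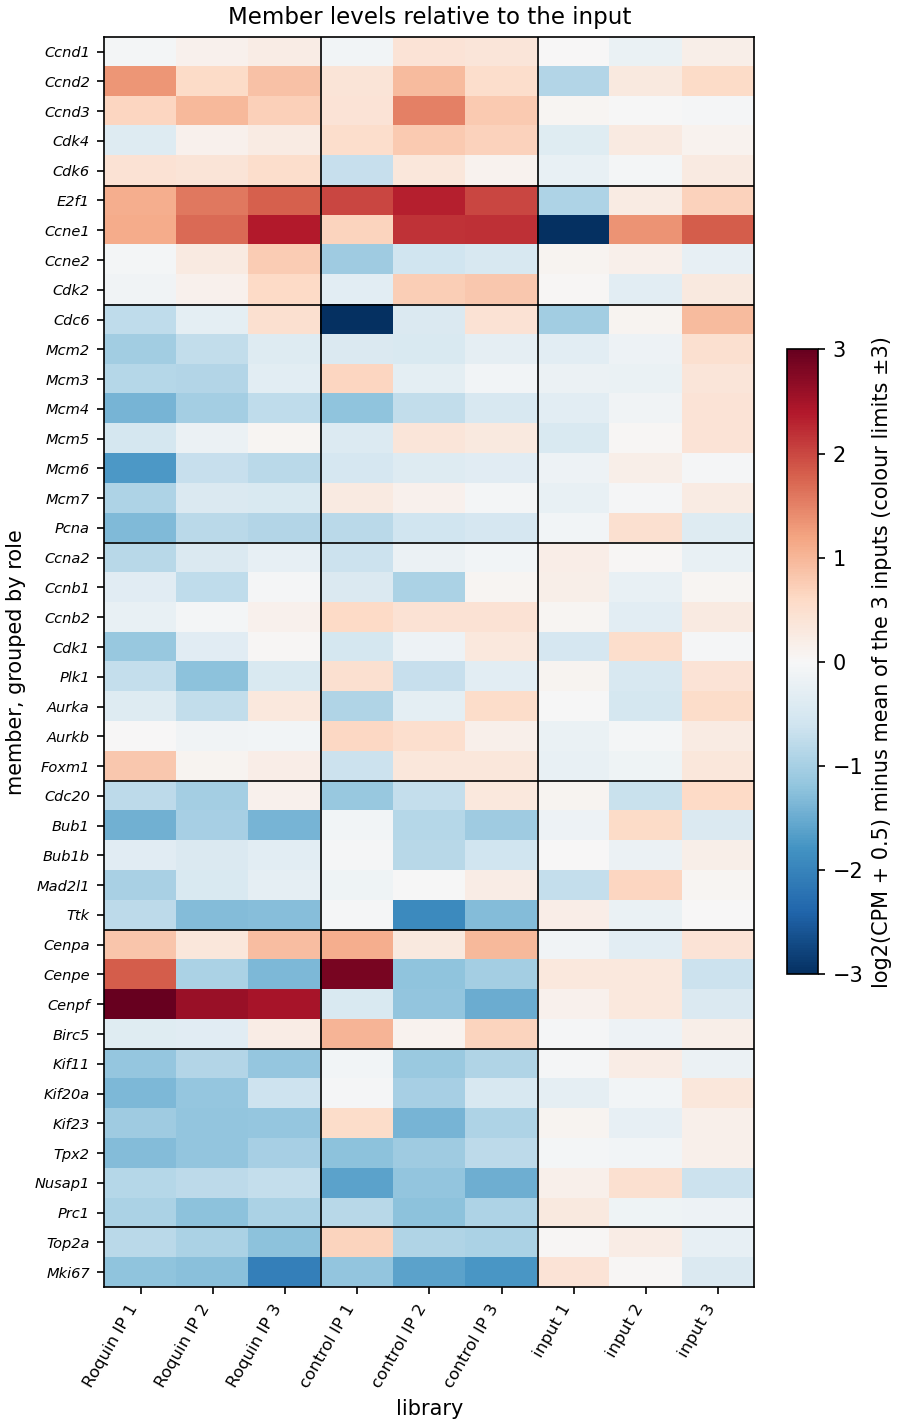
Rows are the 42 members grouped by role, columns the 9 libraries with Roquin IP left of control IP and input, and colour the log2(CPM + 0.5) minus the mean of the 3 inputs, red above and blue below, with colours limited to ±3. Cenpf is dark red in the 3 Roquin IP libraries and blue in control IP, Cenpe is red in replicate 1 of both IPs, and the spindle genes are blue in all 3 Roquin IP libraries. Most control IP values of the spindle genes also lie below the mean of the inputs.

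The comparison of Roquin IP with the input sets the antibody fraction against the mRNA pool of the cells. Cenpf and E2f1 were higher in Roquin IP, and 8 members were lower: Mki67, Bub1, Tpx2, Kif11, Mcm4, Prc1, Pcna and Mcm6. The background was 5.45% of all genes called higher and 2.79% called lower. The median log2 fold change of the members was -0.42, against -0.01 for all genes tested. The 3 Roquin IP libraries lay above all 3 inputs for 5 members (16.5% of all genes) and below them for 18 (14.4% of all genes). With the replicate block, 3 members were higher and 14 lower, at a background of 9.99% higher and 8.04% lower. With library size alone, 1 member was higher and 22 were lower, at a background of 2.71% higher and 27.8% lower and medians of -1.16 for the members and -0.76 for all genes.

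Cenpf was 7.35-fold higher in Roquin IP than in the input (log2 fold change 2.88, SE 0.38, edgeR adjusted p = 0.000201), and it was called in each of 17 alternatives, with an adjusted p of at most 0.00342. In control IP over input the same mRNA stood at -1.02 (SE 0.36, adjusted p = 0.135), with all 3 control IP libraries below all 3 inputs. The fit with the replicate block called that difference, at -1.08 (adjusted p = 0.0108, up to 0.321 over 17 alternatives). Cenpf made up 23.6% to 38.8% of all reads of the 42 members in Roquin IP, against 1.70% to 2.60% in control IP, with 2.92% to 4.53% in the input. Without Cenpf the 41 other members summed to 3204 to 3461 CPM in Roquin IP, against 3691 to 5251 CPM in control IP, with 4759 to 5042 CPM in the input. These ranges do not overlap between Roquin IP and either other group. Control IP 1 alone gave the 5251 CPM, while control IP 2 and 3 gave 3691 and 3924 CPM. No such sum was taken for other sets of genes.

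E2f1 was the other member higher in Roquin IP than in the input, and it was also higher in control IP. It had 34.7, 48.7 and 56.5 CPM in Roquin IP, against 65.4, 82.8 and 65.5 CPM in control IP and 8.13, 18.9 and 26.2 CPM in the input. Both IPs lay above the input without overlap, and control IP lay above Roquin IP. The log2 fold change was 1.41 in Roquin IP over input (SE 0.38, edgeR adjusted p = 0.0352) and 2.01 in control IP over input (SE 0.38, adjusted p = 0.0268); the 2 comparisons share the input libraries, where E2f1 was read 20, 48 and 53 times. Over 17 alternatives the adjusted p of the first ran up to 0.213 and that of the second up to 0.110. Without Roquin IP 1, 2 or 3, control IP 2, or input 1 or 2, E2f1 was not called in Roquin IP over input (adjusted p up to 0.134), nor was it with library size alone (0.68, adjusted p = 0.213).

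Mki67 had the largest decrease of the 42 in Roquin IP over input. It had 264, 255 and 148 CPM in Roquin IP, against 270.0, 202 and 183 CPM in control IP and 815, 626 and 453 CPM in the input. The input lay above both IPs without overlap, and the IPs overlapped. The level was 2.84-fold lower in Roquin IP than in the input (log2 fold change -1.51, SE 0.32, edgeR adjusted p = 0.00987), and over 17 alternatives the adjusted p was at most 0.0583, reached without Roquin IP 3. In control IP over input the log2 value was -1.53 (SE 0.32, adjusted p = 0.0399).

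All 6 spindle genes had negative values against the input, with a median of -1.07. For each of the 6, all 3 Roquin IP libraries lay below all 3 inputs (14.4% of all genes). The signs of all 6 were the same with library size alone. In control IP over input all 6 were negative too, with a median of -0.82. There 3 of the 6 had all 3 control IP libraries below all 3 inputs (10.8% of all genes). Tpx2, which activates Aurora A and nucleates spindle microtubules, had 52.8, 56.8 and 64.4 CPM in Roquin IP and 125, 122 and 144 CPM in the input. Its log2 fold change was -1.16 (SE 0.26, edgeR adjusted p = 0.0120). Kif11, the motor that pushes spindle poles apart, had 56.1, 68.5 and 55.9 CPM in Roquin IP and 124, 147 and 111 CPM in the input. It stood at -1.08 (SE 0.31, adjusted p = 0.0439). Prc1, which cross-links the microtubules of the central spindle, had 68.2, 56.2 and 68.2 CPM in Roquin IP and 162, 120 and 118 CPM in the input. It stood at -1.05 (SE 0.26, adjusted p = 0.0247), and its exons share 911 nt with Rccd1 on the opposite strand. In each of the 3 genes the lowest input lay well above the highest Roquin IP library. By edgeR the other 3 were called with the replicate block and not without it: Kif23, a central spindle motor, at -1.12 (adjusted p = 0.0285), Kif20a, a motor of cytokinesis, at -1.04 (0.0157) and Nusap1 at -0.81 (0.0361) (0.108, 0.0669 and 0.0985 without it). Exons of Kif20a share 1271 nt with Cdc23 on the opposite strand.

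All 8 licensing and clamp genes also had negative values against the input, with a median of -0.71, and the sign of each was the same with library size alone. In control IP over input 5 of the 8 were negative and 3 positive, with a median of -0.42. Mcm4, a helicase subunit, had 47.3, 61.6 and 73.8 CPM in Roquin IP and 100.4, 116 and 166 CPM in the input. Its log2 fold change was -1.06 (SE 0.30, edgeR adjusted p = 0.0460). Mcm6, another subunit, had 59.5, 124 and 114 CPM in Roquin IP and 180, 224 and 196 CPM in the input. It stood at -1.01 (SE 0.29, adjusted p = 0.0498), at the edge of the threshold. Pcna, the clamp that holds the replicative polymerases on DNA, had 90.9, 130 and 124 CPM in Roquin IP and 214, 315 and 173 CPM in the input. It stood at -1.02 (SE 0.29, adjusted p = 0.0428), and its reads may be shared with 2 annotated pseudogenes. Roquin IP lay below the input without overlap for all 3 of these genes. Mcm2 was called in the block fit, at -0.73 (adjusted p = 0.0267, against 0.144 without the block). Mcm3 was at -0.68 (0.217), Mcm7 at -0.60 (0.194), Cdc6 at -0.29 (0.881) and Mcm5 at -0.23 (0.703).

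Of the 5 checkpoint genes, all negative against the input, Bub1 was called. In control IP over input all 5 were negative too, with a median of -0.46, and 0 were called. Bub1 encodes a kinase that recruits checkpoint proteins to unattached kinetochores, and it had 44.0, 60.4 and 45.8 CPM in Roquin IP and 109, 180.0 and 88.6 CPM in the input. Its log2 fold change was -1.33 (SE 0.35, edgeR adjusted p = 0.0298), with no overlap between the groups. Ttk, the checkpoint kinase Mps1, was called in the block fit at -1.15 (adjusted p = 0.0402, against 0.145 without it). Bub1b was at -0.37 (0.460), Mad2l1 at -0.63 (0.298) and Cdc20 at -0.56 (unadjusted p = 0.230). Top2a was called lower in the block fit, at -1.02 (0.0273, against 0.143 without it). The mitotic entry genes lay between -0.82 for Plk1 (0.213) and 0.37 for Foxm1 (0.559) and 0 of the 8 were called by edgeR, with or without the block, with 0 higher and 1 lower at an unadjusted p under 0.05 (12.1% and 10.7% of all genes).

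Leaving out single libraries moved these calls. The count of 8 members lower in Roquin IP than in the input became 1 without Roquin IP 1 or 2 (Mki67) or without Roquin IP 3 (Tpx2). It became 2 without input 1 or input 2 (Mki67 and Tpx2 each time), 5 without control IP 2 and 12 without control IP 1. Calls over all genes moved as well, from 267 lower with all 9 libraries to between 30 and 452 without 1 of them. The highest adjusted p so reached was 0.0724 for Tpx2, 0.108 for Prc1, 0.138 for Bub1, 0.162 for Kif11, 0.189 for Pcna, 0.199 for Mcm4 and 0.206 for Mcm6. Correcting for GC content and for the length of the transcript ended the calls of Mcm4 (-0.96, adjusted p = 0.0608), Kif11 (-0.87, 0.0580), Mcm6 (-0.99, 0.0504) and Bub1 (-1.01, 0.0568), and it added Mcm2 (-0.93, 0.0378). All 8 had negative values in every one of the 17 alternatives, and without any 1 library their log2 values ran from -1.68 to -0.75. For the 6 members that the block added (Kif23, Kif20a, Nusap1, Mcm2, Ttk and Top2a), the adjusted p ran from 0.00307 to 0.403 over the alternatives.

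Of the G1 genes, 0 of the 5 D-type cyclins and kinases were called against the input and E2f1 was called among the 4 genes of S phase entry. The medians of these groups were 0.44 and 0.61, and with library size alone -0.30 and -0.11. Cyclin D2 stood at 0.87 (edgeR adjusted p = 0.233), cyclin D3 at 0.80 (0.148) and Cdk6 at 0.44 (0.410), each with all 3 Roquin IP libraries above the input. Cyclin D1 stood at 0.09 (0.871) and Cdk4 at 0.00 (0.999), with values of either sign, from -0.74 to 0.17, over 17 alternatives. Cyclin E1 stood at 0.86 (SE 0.78, 0.563), with 0, 28 and 31 reads in the input. Of the kinetochore genes, Cenpa had 82.5, 58.4 and 88.0 CPM in Roquin IP and 43.1, 37.1 and 61.9 CPM in the input, groups that overlap. It stood at 0.69 (SE 0.31, adjusted p = 0.206) and was called in the block fit (0.69, adjusted p = 0.0380, from 0.0154 to 0.959 over 17 alternatives), while with library size alone it was at -0.03.

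**Figure D4:**
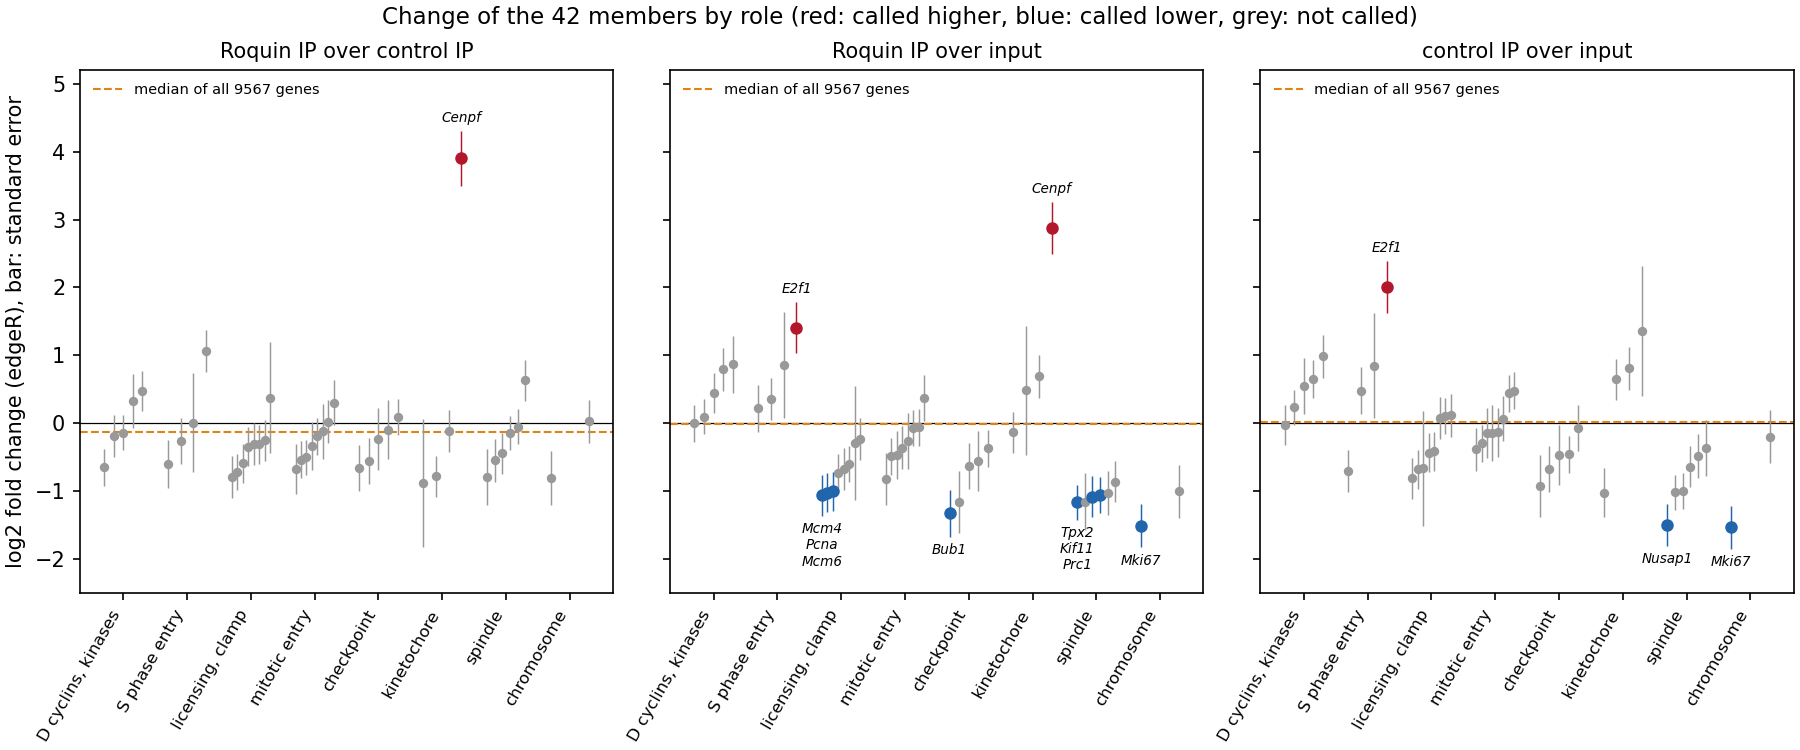
Each point is the log2 fold change of 1 of the 42 members with its standard error from edgeR, grouped by role, for Roquin IP over control IP, Roquin IP over input and control IP over input, with the median of all 9567 genes as a dashed line. Against control IP, Cenpf (3.90) is the only member called; against the input, Cenpf (2.88) and E2f1 (1.41) are called higher and 8 members lower, all from the licensing, checkpoint, spindle and chromosome groups.

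The RNA held by beads alone also differed from that of the lysate in some members. In control IP over input, edgeR called E2f1 higher and Nusap1 and Mki67 lower, at a background of 0.815% of all genes higher and 0.303% lower. Nusap1 had 33.1, 44.4 and 36.3 CPM in control IP and 113, 143 and 65.3 CPM in the input, without overlap. Its log2 fold change was -1.50 (SE 0.31, adjusted p = 0.0357). The members had a median of -0.17, against 0.02 for all genes, and the 3 control IP libraries lay above all 3 inputs for 4 members (12.2% of all genes) and below them for 9 (10.8% of all genes). With the replicate block 4 were higher and 6 lower, against 6.65% and 5.78% of all genes. The block added Ccnd3 at 0.93, Cenpa at 0.80 and Cdk4 at 0.67 on the higher side (adjusted p from 0.0299 to 0.0362, and up to 0.438 over 17 alternatives). On the lower side it added Cenpf, Tpx2 at -1.03, Prc1 at -1.0002 and Mcm4 at -0.81 (adjusted p from 0.00657 to 0.0181, and up to 0.321 over 17 alternatives). The counts fell to 0 higher and 0 lower without Roquin IP 2, control IP 2, control IP 3, input 1 or input 2, with the 6 libraries compared fitted alone, and after the correction for GC content and length; without Roquin IP 1 Nusap1 and Mki67 were not called, without Roquin IP 3 Nusap1 was not, and without control IP 1 there were 2 higher and 4 lower. Calls over all genes moved as well, from 78 higher and 29 lower with all 9 libraries to 0 to 188 higher and 0 to 88 lower without 1 of them. Without any 1 of the 9 libraries the log2 value stayed between 1.66 and 2.35 for E2f1, between -1.76 and -1.31 for Mki67 and between -1.79 and -1.23 for Nusap1. After the correction for GC content and length the values were 1.58 for E2f1, -1.28 for Mki67 and -1.07 for Nusap1.

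For several members both IPs stood on the same side of the input, and the comparisons share the input libraries. In Roquin IP over input, Mki67 was at -1.51, Tpx2 at -1.16, Prc1 at -1.05, Mcm4 at -1.06, Pcna at -1.02 and Bub1 at -1.33. In control IP over input, Mki67 was at -1.53, Tpx2 at -1.02, Prc1 at -1.003, Mcm4 at -0.81, Pcna at -0.68 and Bub1 at -0.67. Kif11 and Mcm6, also called lower in Roquin IP than in the input (-1.08 and -1.01), were at -0.64 and -0.41 in control IP over input. None of these 8 was called in Roquin IP over control IP, where they ranged from -0.65 to 0.03 with adjusted p of 0.548 or more. In that comparison edgeR called 0% of all genes lower, so the lack of a call does not show that the IPs were alike. Cenpf stood on opposite sides of the input, at 2.88 in Roquin IP and -1.02 in control IP.

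Per kb of transcript, Cenpf took the first place of the 42 in Roquin IP, at 130.3 ± 52.7 CPM per kb (SD, n = 3), against place 36 in control IP at 8.75 ± 3.40 and place 29 in the input at 17.7 ± 4.42. The spreads of Roquin IP and of the other 2 groups are far apart. Within Roquin IP, Cenpf was first in Roquin IP 1 (191 CPM per kb) and Roquin IP 2 (104) and second to Cdk4 in Roquin IP 3 (95.8, against 100.4 for Cdk4), and its spread overlaps that of Cdk4. The highest members in the input were Pcna at 154 ± 48.1 CPM per kb, Top2a at 89.8 ± 14.2 and Cdk4 at 85.6 ± 18.2, and the spread of Pcna did not reach that of Top2a while Top2a and Cdk4 overlapped. The same 3 stood at 75.8 ± 13.9, 44.9 ± 6.53 and 85.5 ± 19.1 CPM per kb in Roquin IP and at 96.2 ± 10.7, 78.5 ± 55.1 and 135 ± 11.7 in control IP. The lowest 2 members in each group were Cdc6 and Ccnd2. Cdc6 had 1.797 ± 0.852 CPM per kb in Roquin IP, against 1.35 ± 1.32 in control IP, with 2.27 ± 1.502 in the input. Ccnd2 had 3.42 ± 0.934 in Roquin IP, against 2.71 ± 0.585 in control IP, with 1.87 ± 0.869 in the input, where the spreads of these 2 genes overlap.

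**Figure D5:**
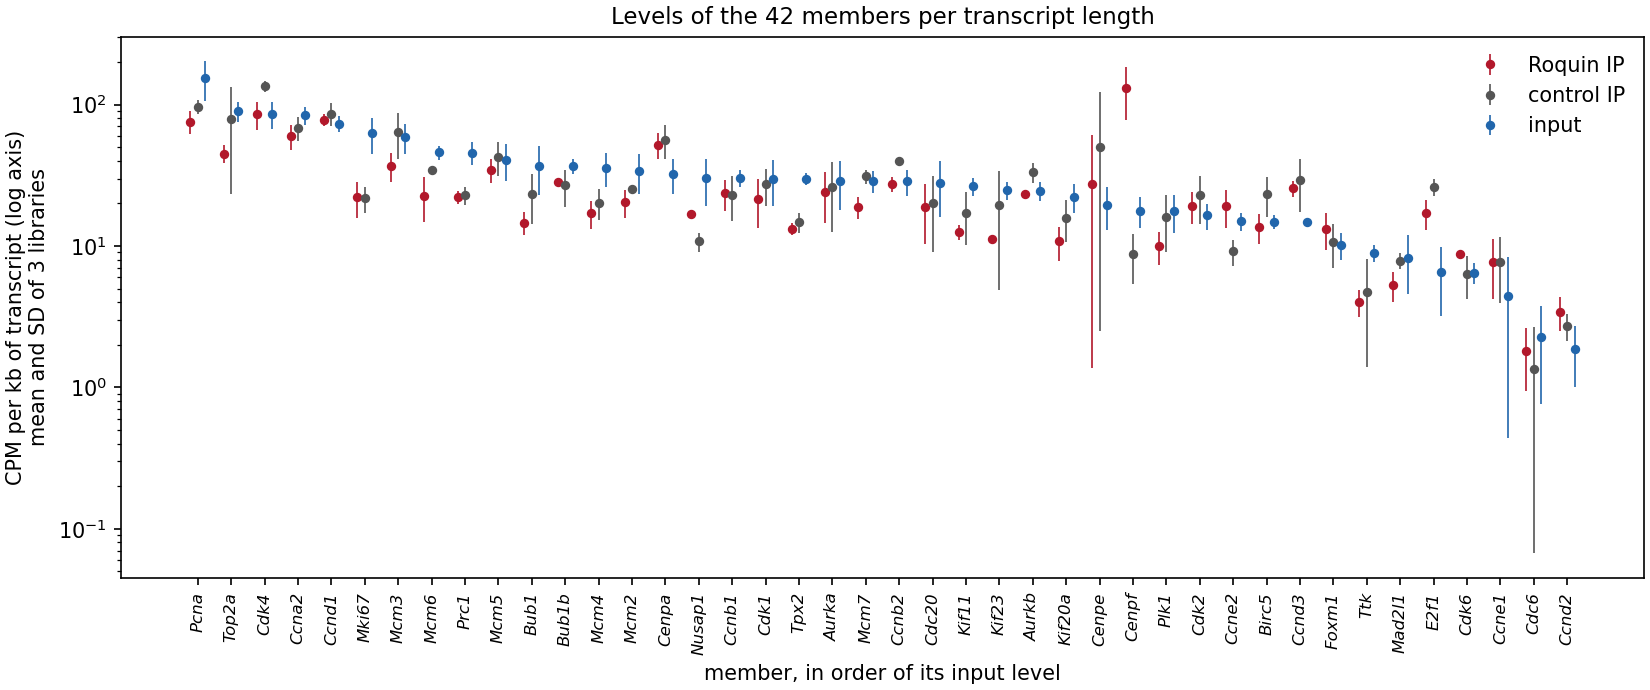
Mean CPM per kb of transcript on a log axis with the SD of 3 libraries, for Roquin IP, control IP and input from left to right within each of the 42 members, which run from the highest to the lowest input level. Lower bars are cut short where the SD reaches the mean. Cenpf, at place 29 by its input level of 17.7, reaches 130.3 in Roquin IP.

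Of the 98 further cell cycle genes listed, 95 were tested, and their median in Roquin IP over control IP was -0.29. edgeR called 2 of them higher and 0 lower, against 3.76% and 0% of all genes, while 6 were higher and 6 lower at an unadjusted p under 0.05 (7.93% and 2.13% of all genes) and DESeq2 called 2 higher and 0 lower. Nuf2, a subunit of the Ndc80 complex that attaches kinetochores to microtubules, had 424, 530 and 649 CPM in Roquin IP, against 50.5, 36.6 and 49.8 CPM in control IP and 57.7, 108 and 68.8 CPM in the input. It stood at a log2 fold change of 3.55 against control IP (SE 0.33, edgeR adjusted p = 8.48e-06) and of 2.77 against the input (SE 0.32, adjusted p = 5.63e-05). Rbl1, the retinoblastoma relative p107 that represses E2F genes, had 156, 144 and 199 CPM in Roquin IP, against 57.8, 41.1 and 47.1 CPM in control IP and 28.5, 46.6 and 70.8 CPM in the input. Its log2 fold change was 1.78 over control IP (SE 0.33, adjusted p = 0.00395) and 1.78 over the input (SE 0.33, adjusted p = 0.00443). In both genes every Roquin IP library lay above the other 6, and both were called under each of 17 alternatives, with an adjusted p of at most 0.0407. The authors' deposited table gives Nuf2 a ratio of 11.86, Rbl1 a ratio of 3.46 with p = 0.002131, and both the class "no CDE". The letters TTCNNNGAA with the loop described above were found in neither transcript.

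Against the input, 3 of the 95 were called higher and 8 lower, at a background of 5.45% and 2.79% of all genes, with a median of -0.29. The third gene that rose was Tk1, the thymidine kinase of S phase, at 1.43 (SE 0.28, edgeR adjusted p = 0.00669). With library size alone it was at 0.67 (adjusted p = 0.138). It was not called over control IP, save in the 2 alternatives with the GC and length correction. The authors' deposited table places Tk1 in the class of open reading frame CDEs. Its coding sequence holds the letters at chr11:117817165-117817173 (minus strand). Melk, the other further gene with a CDE class, has the same class. It was called in 0 of 17 alternatives of either Roquin IP comparison. The letters lay in the coding sequence of 7 of the 98 further genes (7.14%) and in the 3′ UTR of 3 (3.06%). Whether the letters go with a rise was not tested. The largest decreases among the 8 called were Hmmr, a spindle assembly factor, at -1.84, Smc4, a condensin subunit, at -1.79, Pola1, the catalytic subunit of DNA polymerase alpha, at -1.62, Kif18a, a kinetochore motor, at -1.62, and Anln (anillin), a scaffold of the contractile ring, at -1.48, with adjusted p from 0.00266 to 0.0322. Smc4 was not called without Roquin IP 1 or 3 or input 1 or 2 (adjusted p up to 0.0690), and Kif18a was not called without Roquin IP 1, 2 or 3 or input 2, or after the correction for GC content and length (up to 0.184). Hmmr, Smc4, Pola1, Kif18a and Anln also had lower means in control IP than in the input. In that order the control IP means were 39.9, 112, 44.5, 15.6 and 59.8 CPM. The input means were 106, 269, 94.6, 28.2 and 122 CPM, and the libraries of Smc4 and Kif18a overlapped. In control IP over input edgeR called 0 of the 95 in either direction, with 10 higher and 13 lower at an unadjusted p under 0.05 (10.8% and 9.53% of all genes) and 4 higher and 8 lower by DESeq2 (4.16% and 4.08% of all genes).

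Transcripts of the 42 members had a median length of 3376 nt, from 1466 to 11525 nt, and a median GC content of 47.6%, against 3092 nt and 49.7% for the 9466 genes tested that had a transcript. Cenpf is the second longest, at 11130 nt with 43.3% GC. After the correction for GC content and length Cenpf stood at 3.58 over control IP (edgeR adjusted p = 3.40e-06) and at 2.94 over the input (1.47e-05). Exons of 16 members overlap an annotated neighbour, in 12 of them a protein-coding gene, and 4 have a named pseudogene (Ccnb1, Ccnb2, Ccnd3 and Pcna), so that their counts are less certain. Cenpf is in neither set.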

How the data were processed

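The authors deposited 1 table of raw counts of reads per gene for the 9 libraries, per the file headers. Its ratio of Roquin IP to control IP is headed log2 but holds linear fold values, and the authors' p-value stands beside it; nothing says whether that p-value is adjusted. The libraries were made with the TruSeq RNA kit and run on a HiSeq 2000, per the labels' protocols. CASAVA 1.8.2, BWA and DESeq 1.8.3 are named in the submitters' processing notes; the aligner settings, genome build, annotation and strand handling: not given in the sources used here. In all, the table lists 20467 genes by symbol and 7480 rows without one, which were left out of totals and tests.

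Counts were fitted in R 4.3.3 with edgeR 4.0.16 (quasi-likelihood F test, TMM factors, group as the term, all 9 libraries together; filterByExpr with a minimum count of 10), and a gene was called where its p, adjusted by Benjamini and Hochberg over all 9567 genes tested, was under 0.05. The biological coefficient of variation was 0.350. The procedure was tested on simulated data. The alternatives were RLE factors, library size alone, no low-count filter, DESeq2 1.42.0, replicate number as a block, a GC and length correction with and without that block, a fit of the 6 libraries compared, and leaving out each of the 9 libraries in turn. Where that leaves 2 libraries in a group, the spread is pooled over the groups.

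The series' design text calls the replicates biological. Labels number them 1 to 3 in each group, and the numbers pair the samples: deviations from the group means correlated at 0.153 to 0.589 across genes between same-numbered libraries of different groups and at -0.441 to -0.0156 between the others. Deviations from a mean of 3 libraries sum to 0, so the negative values add no separate evidence. The fit with group as the only term leaves this pairing out, and the fit with the replicate block uses it. Within each group no library was a duplicate of another (chi-square per degree of freedom between replicates 13.9 to 117.4). Libraries of different groups were not compared in this way. Floors for a count of 0 cover counting error only.

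Transcripts of GENCODE M21 were matched by symbol (18602 genes) or RefSeq synonym (1517), taking 1 transcript a gene, the one with the longest 3′ UTR. Lengths, GC content, values and places per kb, the search for the letters and the GC and length correction all rest on that choice. Which transcripts these cells express was not tested. Members and gene lists were chosen with earlier results of these data known. Every member is given, and members called by edgeR with or without the block get full statistics. Of the further cell cycle genes at most the 5 largest changes in each direction are named, and Melk is named for its class.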

Additional observations from a re-analysis of the deposited data

How the results depend on the processing

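Cenpf kept its direction and its call in both Roquin IP comparisons under each of the 17 alternatives (log2 3.08 to 4.25 over control IP, 2.10 to 3.06 over the input), and no called member changed sign under any of them. Counts of calls near the threshold moved, and the cause was not tested. With 3 libraries a group and 1799390 to 12975767 reads a library, members such as Cdc6 and Ccne1 (0 to 36 reads in the input) are weakly measured, and a difference that missed the threshold is not shown to be absent. The genes compared are 42 members, 95 further cell cycle genes and all 9567 genes tested. Some counts below stand without the count of all genes in the same setting and direction. Those are counts alone and are not set against a background share.

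Roquin IP over control IP: the replicate block and DESeq2 each gave 2 members higher, where the fit without the block gave 1, and 11 and 6 of all genes lower, where it gave 0. Library size alone gave 28 members, 58 further genes and 3694 of all genes lower, and a member median of -1.093. Without the low-count filter 21 of all genes were lower. GC and length correction gave 2 of all genes lower, and with the replicate block 1 member, 1 further gene and 50 of all genes lower and 4 further genes higher. Leaving out 1 library at a time gave 0 to 3 of all genes lower and a member median of -0.4169 to -0.1443.

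Roquin IP over input: the replicate block gave 14 members, 16 further genes and 769 of all genes lower, and 8 further genes and 956 of all genes higher. With GC and length correction added to the block, 15, 14 and 762 were lower, and 4, 8 and 1028 higher. GC and length correction alone gave 5 members lower and 6 further genes higher. Library size alone gave 22, 44 and 2659 lower, 1 member and 259 of all genes higher, and a member median of -1.155. DESeq2 gave 6 further genes higher and 535 of all genes lower, no low-count filter 5 and 416, and the 6 libraries compared alone 5 further genes higher. Leaving out 1 library gave 1 to 2 members, 3 to 5 further genes and 298 to 679 of all genes higher, 1 to 12, 3 to 13 and 30 to 452 lower, and a member median of -0.6488 to -0.2961.

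Control IP over input: the replicate block gave 4 members, 8 further genes and 636 of all genes higher and 6, 9 and 553 lower; with GC and length correction as well, 2, 5 and 485 higher and 7, 9 and 373 lower. GC and length correction alone gave 0 members and 28 of all genes higher and 0 and 8 lower, and the 6 libraries alone 0 and 2 higher and 0 and 1 lower. DESeq2 gave 4 further genes and 398 of all genes higher and 4 members, 8 further genes and 390 of all genes lower. Without the low-count filter there were 2 members, 3 further genes and 335 of all genes higher, and 4 further genes and 229 of all genes lower. Library size alone gave 1 member and 10 of all genes lower. Leaving out 1 library gave 0 to 2 members, 0 to 2 further genes and 0 to 188 of all genes higher, 0 to 4, 0 to 7 and 0 to 88 lower, and a member median of -0.2994 to -0.08275.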
